A study of Mus musculus with 16 samples.

Results

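The proteasome genes of CD4+ T cells were described in mice on venetoclax, an inhibitor of the anti-apoptotic protein BCL-2, and in mice on vehicle. The genes were taken by symbol: Psma, Psmb, Psmc, Psmd, Psme, Psmf or Psmg followed by a number. In all, 46 genes matched in both expression tables, out of 11067 genes in the table of regulatory T cells (Treg) and 11171 in the table of conventional T cells (Tcon), and no gene matched in 1 table only. They comprise 7 alpha ring and 4 non-catalytic beta genes of the 20S core, the 3 constitutive and 3 immunoproteasome catalytic genes, 6 ATPase and 11 non-ATPase genes of the 19S cap, 4 activators, 1 inhibitor and 7 assembly chaperones.

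Total RNA was sequenced from Treg, sorted as CD4+ FOXP3+, and Tcon, sorted as CD4+ FOXP3-, of spleen and lymph node. The mice were of the FOXP3-IRES-GFP strain B6.Cg-Foxp3tm2Tch/J, in which a fluorescent reporter marks Foxp3 expression, with the genotype given as WT. There were 4 groups of 4 biological replicates: Treg on venetoclax, Treg on vehicle, Tcon on venetoclax and Tcon on vehicle, with venetoclax at 50 mg/kg and both treatments given for 14 days. The labels give neither age nor sex, nor whether animals were pooled, and Treg and Tcon libraries share codes that are not said to mark an animal.

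The 26S proteasome degrades proteins tagged with ubiquitin. Its 19S cap binds the chain, unfolds the substrate with a ring of ATPases and passes it into the 20S core, where catalytic beta subunits cut it into peptides. Lymphocytes and cells exposed to interferon replace the constitutive catalytic subunits with those of the immunoproteasome: Psmb8 takes the place of Psmb5 (chymotrypsin-like), Psmb9 that of Psmb6 (caspase-like) and Psmb10 that of Psmb7 (trypsin-like), which changes the peptides offered to MHC class I.

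The promoters of the catalytic genes and of Psmd11, the member called higher in Treg, are shown because they hold, or lack, short matches to binding motifs of factors that act on proteasome genes. They run from 250 bases before to 50 after the RefSeq start site, 5′ to 3′ on the gene's strand, on GRCm38.p6 (mm10), with motif matches in capitals. Psmb7 had no entry in the promoter table.
Psmb5 (chr14:54617946-54618245, minus strand): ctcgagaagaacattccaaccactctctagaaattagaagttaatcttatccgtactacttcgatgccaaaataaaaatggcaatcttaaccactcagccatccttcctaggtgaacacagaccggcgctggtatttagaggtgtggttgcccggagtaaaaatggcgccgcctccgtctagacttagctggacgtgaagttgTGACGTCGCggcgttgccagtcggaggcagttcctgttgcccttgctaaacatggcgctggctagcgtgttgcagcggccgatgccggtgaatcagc
Psmb6 (chr11:70525107-70525406, plus strand): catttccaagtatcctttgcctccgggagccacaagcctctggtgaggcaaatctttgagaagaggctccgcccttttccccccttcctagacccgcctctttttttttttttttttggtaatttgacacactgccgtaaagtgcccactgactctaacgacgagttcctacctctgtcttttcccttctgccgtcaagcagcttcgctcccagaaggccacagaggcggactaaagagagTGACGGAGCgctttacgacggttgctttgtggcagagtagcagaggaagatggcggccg
Psmb8 (chr17:34197945-34198244, plus strand): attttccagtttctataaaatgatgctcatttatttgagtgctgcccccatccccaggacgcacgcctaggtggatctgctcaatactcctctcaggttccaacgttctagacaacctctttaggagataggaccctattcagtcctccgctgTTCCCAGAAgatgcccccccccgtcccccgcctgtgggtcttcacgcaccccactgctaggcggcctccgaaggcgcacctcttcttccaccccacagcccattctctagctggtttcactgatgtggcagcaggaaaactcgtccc
Psmb9 (chr17:34187281-34187580, minus strand): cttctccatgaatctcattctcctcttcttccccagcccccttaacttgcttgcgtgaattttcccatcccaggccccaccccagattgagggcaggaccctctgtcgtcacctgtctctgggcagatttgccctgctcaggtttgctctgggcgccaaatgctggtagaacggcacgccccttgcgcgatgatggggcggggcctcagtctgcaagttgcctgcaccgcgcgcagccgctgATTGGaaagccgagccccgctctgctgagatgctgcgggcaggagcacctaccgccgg
Psmb10 (chr8:105938343-105938642, minus strand): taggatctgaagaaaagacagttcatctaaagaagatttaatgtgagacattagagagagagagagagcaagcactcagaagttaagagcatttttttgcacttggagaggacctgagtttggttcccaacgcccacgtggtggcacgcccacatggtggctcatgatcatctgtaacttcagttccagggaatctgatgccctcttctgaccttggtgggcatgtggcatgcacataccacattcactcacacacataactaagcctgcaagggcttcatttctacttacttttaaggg
Psmd11 (chr11:80428365-80428664, plus strand): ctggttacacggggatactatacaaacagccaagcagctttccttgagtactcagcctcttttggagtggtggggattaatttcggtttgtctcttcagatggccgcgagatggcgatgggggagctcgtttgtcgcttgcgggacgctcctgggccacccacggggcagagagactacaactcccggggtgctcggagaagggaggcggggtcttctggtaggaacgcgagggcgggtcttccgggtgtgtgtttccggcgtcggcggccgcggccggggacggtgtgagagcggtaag

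The capitals in Psmb5 and Psmb6 mark TGACNNNGC, the core of the antioxidant response element bound by Nfe2l1 and Nfe2l2 with small Maf proteins, at positions -47 and -9 from the start site. Those in Psmb8 mark TTCNNNGAA, the gamma-activated site, at -97, and those in Psmb9 mark the CCAAT box, read on the opposite strand, at -8. Psmb10 and Psmd11 held none of the 4 motifs searched, the fourth being the core of the interferon-stimulated response element. Both strands were searched and overlapping matches were kept. Promoters were found for 39 of the 46 members, 3 of which had more than 1 listed. The antioxidant core was in 15.4% of these 39 promoters, against 14.8% of the 9235 promoters of genes in either table, and the gamma-activated site in 7.69% against 6.66%. CCAAT was in 33.3% of member promoters and 38.9% of the larger set. The interferon core was in 5 member promoters (Psmb3, Psmd4, Psmd9, Psme1 and Psmg4), or 12.8%, against 2.92%. A match of letters is a description of the sequence, and these counts were given no test.

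Reads ran from 21335006 to 25027038 per Treg library and from 22982210 to 24960570 per Tcon library. Cd3e and Cd4 were expressed in both subsets. The Treg genes Foxp3, Il2ra, Ikzf2 and Ctla4 were summed in CPM (reads scaled to the library total). They stood at 3590 to 3880 CPM in venetoclax Treg and 3130 to 3600 CPM in vehicle Treg. In Tcon they stood at 74.4 to 128 CPM on venetoclax and 71.9 to 108 CPM on vehicle. In each subset 1 of these 4 genes was called higher. Of 29 marker genes of other cell types, 20 were measured in Treg, with summed levels of 315 to 403 CPM on venetoclax and 370 to 395 CPM on vehicle, where 1 marker was called higher and 1 lower. Among these lists the summed stroma and endothelium markers of Treg, of which Col1a1 and Pecam1 were measured, did not overlap. They stood at 168 to 190 CPM on venetoclax and 206 to 250 CPM on vehicle, and the sum does not tell which cells the reads came from. The NK cell markers stood at 18.9 to 29 CPM on venetoclax and 12.9 to 19.8 CPM on vehicle. The part of either list in the Treg results was not tested. In Tcon 19 were measured, with 332 to 431 CPM on venetoclax and 361 to 418 CPM on vehicle and none called. There the NK cell markers stood at 31.6 to 66.8 CPM on venetoclax and 25.3 to 34.9 CPM on vehicle. Their part in the Tcon results was not tested. Y-linked genes were expressed above traces in replicates 1, 2 and 3 of venetoclax and replicate 2 of vehicle in both subsets, so the Y-linked level moved with treatment. In these libraries their mean log2 level ran from 9.7 to 11.9 in Tcon and from 10.1 to 11.8 in Treg. It was highest in the number 2 libraries. In Tcon, vehicle replicate 3 and venetoclax replicate 3 stood apart over genes in general, not only in the proteasome genes. The chi-square per degree of freedom between 2 vehicle libraries was 89.5 to 127 with replicate 3 and 9.78 to 20.4 without it. Between 2 venetoclax libraries it was 36.7 to 43.2 with replicate 3 and 6.41 to 12.0 without it. Results that rest on these libraries are given with and without them, or library by library.

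All 46 genes had a mean of over 50 normalized counts in both tables, so the alternative filter at a mean of 50 removed none of them. The lowest mean of any gene was 8.48 in Treg and 4.8 in Tcon. Subunit genes too low to be listed cannot be seen here. Per kilobase of transcript, the interferon-inducible activators Psme1 and Psme2, which open the 20S core in place of the 19S cap, were highest. Psme1 stood at 336 ± 23.7 CPM per kilobase in vehicle Treg and 257 ± 5.07 in vehicle Tcon, and Psme2 at 321 ± 15.3 in Treg and 273 ± 20 in Tcon (SD, n = 4 each). The reads of Psme2 are uncertain in part, since mice carry a close copy of the gene. Psmb8 ranked next in both subsets, at 256 ± 13.3 CPM per kilobase in Treg and 190 ± 14.7 in Tcon, above all other catalytic genes.

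Non-catalytic genes of the 20S beta ring had a median level of 111 CPM per kilobase in vehicle Treg and 106 in vehicle Tcon, the alpha ring 87.0 and 83.9, the ATPases 62.3 and 57.2, and the other 19S genes 45.1 and 42.6. Assembly chaperones, which act in passing and are not part of the finished particle, had 19.2 in Treg and 18.8 in Tcon. The inhibitor Psmf1 (PI31) stood at 11.7 ± 0.519 in Treg and 11.6 ± 0.928 in Tcon. Lowest was Psmd9, a chaperone of 19S base assembly, at 8.20 ± 0.463 in Treg and 8.0 ± 0.337 in Tcon. Neighbours in this order often overlapped: Psmb4, Psmb6 and Psmb9 stood at 121 ± 5.71, 120 ± 11.8 and 111 ± 5.47 CPM per kilobase in vehicle Treg. Lengths are those of 1 principal transcript per gene, and with the union of all exons Psmb1 moved in Treg to rank 27, against rank 12 by principal transcript, while the 3 highest genes kept their ranks.

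**Figure D1:**
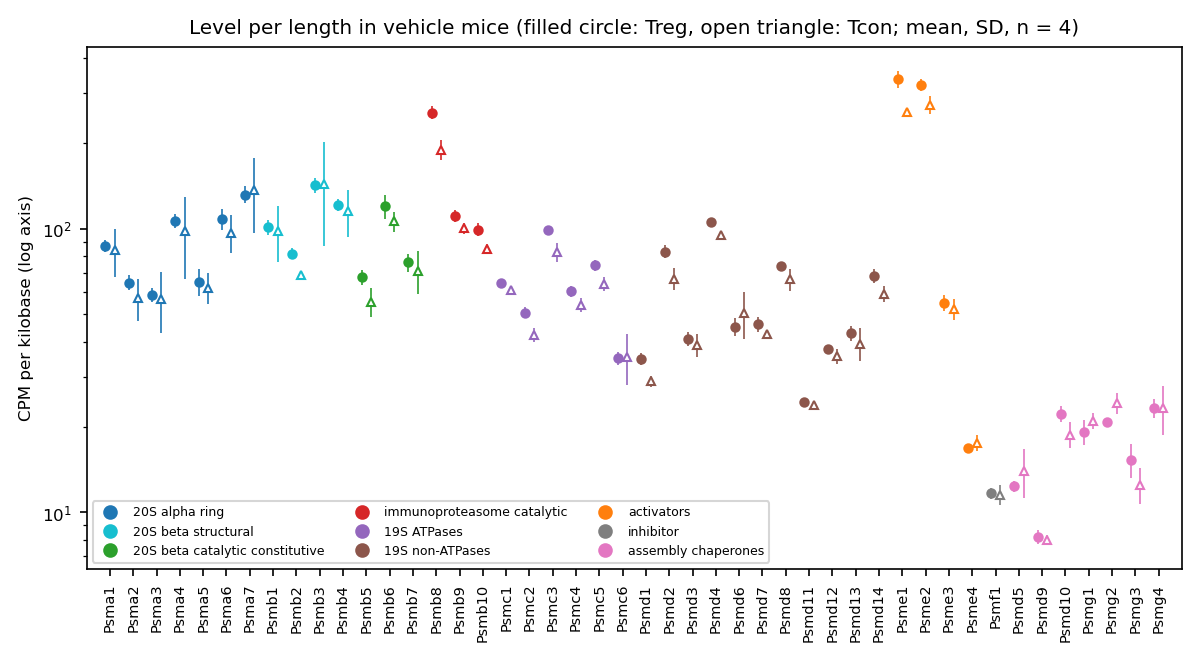
Level of each proteasome gene per transcript length (CPM per kilobase, log axis) in vehicle mice; filled circles are Treg means, open triangles Tcon means, lines SD over 4 libraries, colours the subunit classes. Psme1, Psme2 and Psmb8 lead in both subsets, Psmd9 and Psmf1 are lowest, and relative to the mean the SD is widest for Psmb3, Psma4 and Psma7 in Tcon.

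Within each catalytic pair, Psmb8 stood at 3.80 ± 0.110 times Psmb5 per kilobase in vehicle Treg and 3.45 ± 0.230 times in vehicle Tcon, whereas Psmb9 was near equal to Psmb6, at 0.931 ± 0.0944 and 0.946 ± 0.0441. Psmb10 stood at 1.31 ± 0.0378 times Psmb7 in Treg and 1.22 ± 0.186 times in Tcon (SD, n = 4 each). The immunoproteasome genes gave 64.9 ± 0.874% of the catalytic total per kilobase in venetoclax Treg and 63.9 ± 1.20% in vehicle Treg, 62.5 ± 0.521% in venetoclax Tcon and 61.8 ± 1.66% in vehicle Tcon. Single libraries ran from 64.1% to 65.8% in venetoclax Treg, from 62.6% to 65.4% in vehicle Treg, from 61.9% to 63.1% in venetoclax Tcon and from 59.3% to 62.7% in vehicle Tcon. The 2 treatments overlapped in each subset, and the lowest share was that of Tcon vehicle replicate 3.

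In Treg, venetoclax went with small changes of few proteasome genes. By limma's moderated test on log2(normalized count + 1), Benjamini-Hochberg adjusted over all 11067 genes with a threshold of 0.05, 1 of 46 genes rose (Psmd11), where 10.7% of all genes did, and 2 fell (Psmb4 and Psmd4), where 8.81% did. The shares of members called are below these background shares. In 33 of the 46 genes the log2 change was negative, with a median of -0.03, while 51.3% of all genes were above 0 with a median of 0.00. All 46 intervals (95%) lay within 1.5-fold in either direction. Unadjusted p-values under 0.05 came to 1 higher (17.7% of all genes) and 10 lower (15.6%).

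Psmd11 (Rpn6) is a lid subunit that helps hold the 19S cap on the 20S core, encoded on chromosome 11 from 80428615 to 80473248 (GRCm38). In Treg it had 1876, 1875, 1818 and 1950 normalized counts on venetoclax, against 1638, 1609, 1680 and 1702 on vehicle. Every venetoclax library was above every vehicle library. The log2 change was 0.18 (SE 0.047), or 1.13-fold, with a limma adjusted p of 0.0168, and without venetoclax replicate 4 the adjusted p was 0.0558. It was also the only member whose Treg libraries were all above (12.0% of all genes were).

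Psmb4, a non-catalytic beta subunit encoded on chromosome 3 from 94884324 to 94886958, fell: it had 2896, 2979, 3014 and 3189 normalized counts in venetoclax Treg, against 3478, 3226, 3641 and 3293 in vehicle Treg. No libraries overlapped, the log2 change was -0.17 (SE 0.0519) and the limma adjusted p 0.0311. Psmd4 (Rpn10), a ubiquitin receptor of the cap encoded on chromosome 3 from 95032688 to 95042614, fell likewise, with 2955, 3016, 3082 and 3020 on venetoclax and 3331, 3126, 3472 and 3392 on vehicle. Its libraries did not overlap either, with a log2 change of -0.14 (SE 0.0465) and a limma adjusted p of 0.0480. Neither call was firm: the adjusted p of Psmb4 ranged from 0.0200 to 0.0961 and that of Psmd4 from 0.0196 to 0.130 when 1 library at a time was left out. Both calls were lost without vehicle replicate 1 or 3 and without venetoclax replicate 1, 2 or 3, and that of Psmd4 also without replicate 4 of either treatment.

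Psmd9 had 405, 458, 441 and 435 normalized counts in venetoclax Treg and 535, 466, 522 and 500 in vehicle Treg. All venetoclax libraries were lower, at a log2 change of -0.22 (SE 0.0733), and the limma adjusted p of 0.0516 missed the threshold, which edgeR (0.0422) and DESeq2 (0.0430) passed. Besides Psmb4, Psmd4 and Psmd9, the venetoclax libraries of Psmb3, Psmd8 and Psmg4 lay below all vehicle libraries, 6 members in all, where 10.7% of all genes did so. Psmg4, a chaperone of the alpha ring, was at 267 ± 7.73 normalized counts on venetoclax and 308 ± 25.9 on vehicle (SD, n = 4 each).

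The other Treg calls that depended on 1 library concerned the core. Vehicle replicate 2 was the lowest of all 8 Treg libraries for 26 of the 46 genes, and for 14% of all genes. Without it, 7 members passed as lower (9.10% of all genes): Psma2, Psma6, Psmb4, Psmb6, Psmb7, Psmd4 and Psmd9. Psma2, of the alpha ring, had 3990, 3962, 4161 and 4259 normalized counts in venetoclax Treg and 4577, 4050, 4788 and 4443 in vehicle Treg. Psma6 had 2317, 2472, 2360 and 2508 on venetoclax and 2731, 2394, 2984 and 2567 on vehicle. In both genes only vehicle replicate 2 reached into the venetoclax range. With all libraries the log2 changes were -0.12 and -0.14, with limma adjusted p of 0.132 and 0.137.

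Once the fit held the Y-linked level, the direction over the members turned: 26 of 46 were positive in Treg with a median of 0.01, no member passed as lower (6.10% of all genes did), and Psmb4 and Psmd4 stood at log2 changes of -0.13 and -0.11. Psmd11 passed there as higher, with a limma adjusted p of 0.0168. The labels give no sex, and the part of the Y-linked difference in these values was not tested beyond this covariate. Without both number 3 libraries, 27 were negative (median -0.01) and none passed as lower (3.79%), and with upper quartile scaling, which moved the median of all genes by -0.03, 40 were negative.

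The catalytic genes showed no call in Treg. Psmb8 had 9310, 9451, 10179 and 9727 normalized counts on venetoclax and 10296, 9271, 10473 and 9574 on vehicle, a log2 change of -0.03 (95% interval -0.15 to 0.08). Psmb9 had 3233, 3178, 3342 and 3587 on venetoclax and 3781, 3459, 3542 and 3420 on vehicle, at -0.09 (-0.20 to 0.02). Psmb10 had 3084, 3033, 3199 and 3219 on venetoclax and 3134, 2864, 3322 and 3033 on vehicle, at 0.02 (-0.09 to 0.13). The groups overlapped in all 3 immunoproteasome genes.

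Among the constitutive partners in Treg, Psmb5 had 1431, 1440, 1529 and 1611 normalized counts on venetoclax and 1460, 1313, 1564 and 1422 on vehicle, a log2 change of 0.06 (95% interval -0.07 to 0.20). Psmb6 had 1908, 2105, 1981 and 2084 on venetoclax and 2316, 1963, 2559 and 2237 on vehicle, at -0.16 (-0.31 to -0.01). Psmb7 had 1761, 1880, 1864 and 2032 on venetoclax and 2135, 1860, 2284 and 2097 on vehicle, at -0.15 (-0.29 to -0.01). Vehicle replicate 2 lay within the venetoclax range for Psmb6 and Psmb7, whose limma adjusted p were 0.124 each, and the other vehicle libraries lay above it. The immunoproteasome genes minus their constitutive partners changed by a mean log2 of 0.05 in Treg, on a per-library SD of 0.0484 on venetoclax and 0.0734 on vehicle. Single pairs moved in opposite directions: Psmb8 against Psmb5 was 3.59, 3.62, 3.68 and 3.33 times per kilobase in venetoclax Treg and 3.90, 3.90, 3.70 and 3.72 times in vehicle Treg. Psmb10 against Psmb7 was 1.55, 1.43, 1.52 and 1.40 times on venetoclax and 1.30, 1.36, 1.29 and 1.28 times on vehicle. The treatments did not overlap in either ratio, lower on venetoclax in the first and higher in the second. These ratios were picked out after their values were seen and are given without a test.

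**Figure D2:**
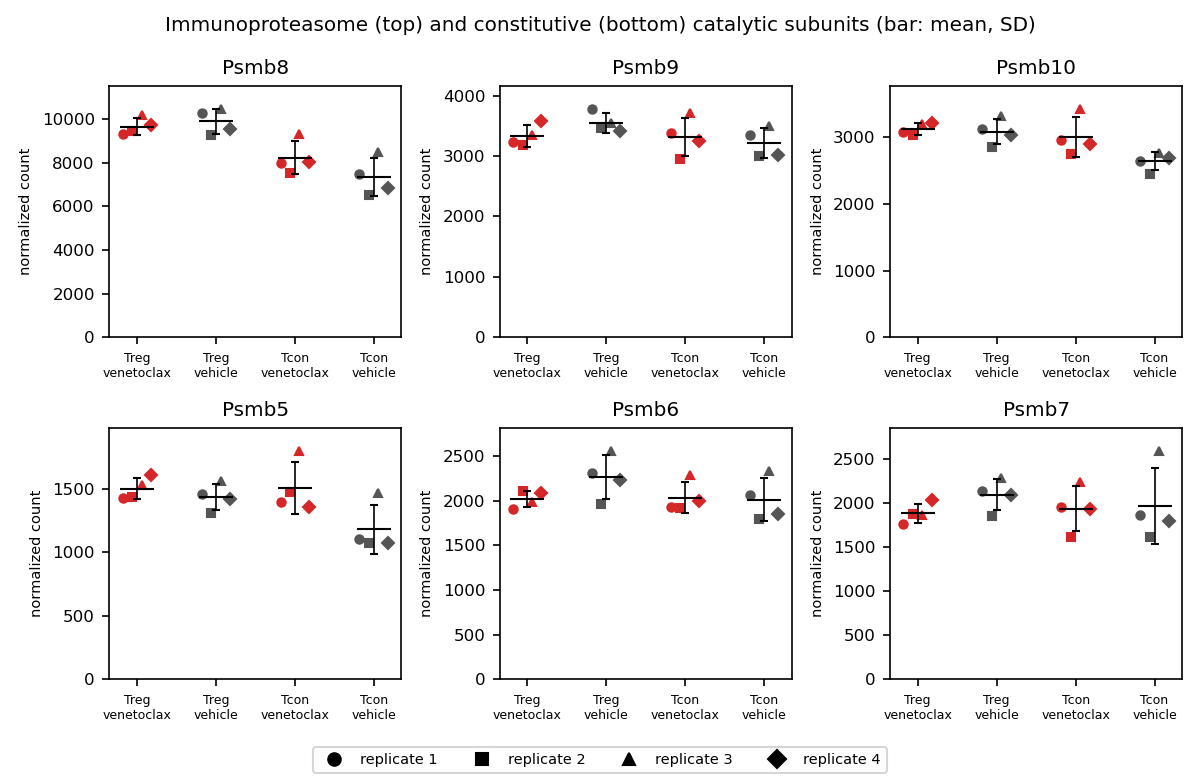
Normalized counts of the 3 immunoproteasome genes (top row) and the constitutive genes they replace (bottom row) in the 4 groups; symbols are replicates, the bar and whiskers mean and SD of 4 libraries, and axes start at 0. Treatment groups overlap in every panel, the number 3 libraries of Tcon are the highest of their group in all 6 genes, and Psmb8 is the most abundant.

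The remaining named members in Treg also overlapped between treatments. Psmc6, an ATPase, had 1777, 1815, 1797 and 1886 normalized counts on venetoclax and 1754, 1759, 1961 and 1933 on vehicle (log2 -0.02). Psme1 had 8222, 8042, 8800 and 8689 on venetoclax and 9349, 7894, 9191 and 9089 on vehicle (log2 -0.07). Psmf1 had 1110, 1017, 911 and 1068 on venetoclax and 1111, 1058, 1025 and 1041 on vehicle (log2 -0.05). The 6 ATPases of Treg lay between -0.02 and 0.02, the narrowest range of any class with more than 1 member.

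In Tcon no proteasome gene passed limma's test in either direction, where 3.92% of all 11171 genes passed as higher and 2.99% as lower. Unadjusted p-values under 0.05 came to 7 higher (11.6% of all genes) and 0 lower (11.0%), edgeR called none as higher (3.74%), and DESeq2 called 2 higher (Psmd11 and Psmd2), where it called 6.34% of its 10737 tested genes. The log2 change was positive in 33 of 46 members, with a median of 0.07, while 50.5% of all genes were above 0. The authors' deposited table gave 3 members an adjusted p under 0.05 (Psmc1, Psmd11 and Psmd2, all higher), where 6.02% of genes did. By limma, 44 of the 46 intervals lay within 1.5-fold, the exceptions being Psmb3 and Psmb5.

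The Tcon libraries of the 2 treatments did not overlap in 7 members, all higher on venetoclax and all of the 19S cap: Psmc1, Psmc4, Psmc5, Psmd1, Psmd2, Psmd7 and Psmd11, where 8.78% of all genes did so. None lay below (7.47% of all genes). Psmd11 had 1970, 1813, 1992 and 1768 normalized counts on venetoclax and 1569, 1615, 1648 and 1618 on vehicle. The vehicle libraries were close together and every venetoclax library stood above them. Its log2 change was 0.22 (SE 0.0634), close to that in Treg, with a limma adjusted p of 0.0618.

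Psmd2 (Rpn1), the base scaffold on which shuttle proteins dock, had 5444, 5305, 5445 and 5479 normalized counts in venetoclax Tcon and 5092, 4494, 4372 and 4683 in vehicle Tcon. Psmc1 had 2565, 2497, 2749 and 2606 on venetoclax and 2340, 2199, 2406 and 2205 on vehicle. Psmc4 had 2012, 2025, 2334 and 2039 on venetoclax and 1954, 1770, 1827 and 1796 on vehicle. In these 3 genes, 1 a scaffold and 2 ATPases, every venetoclax library was higher, by log2 changes of 0.22 (SE 0.0653), 0.19 (SE 0.062) and 0.19 (SE 0.0698), with limma adjusted p of 0.0726, 0.101 and 0.129.

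Psmb5 had the largest log2 change of the members in Tcon. It stood at 1399, 1473, 1801 and 1359 normalized counts on venetoclax and 1109, 1078, 1469 and 1072 on vehicle. In both treatments replicate 3 was the highest library, and without that of vehicle the groups did not overlap. The log2 change was 0.36 (SE 0.121) with a limma adjusted p of 0.109, and without vehicle replicate 3 it was 0.46 with an adjusted p of 0.00923. Psmb6 and Psmb7, the other constitutive catalytic genes, had 1928, 1919, 2294 and 1998 and 1957, 1614, 2239 and 1937 on venetoclax, against 2063, 1797, 2335 and 1854 and 1865, 1619, 2595 and 1793 on vehicle. Both overlapped widely, at log2 changes of 0.02 and -0.01.

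The immunoproteasome genes of Tcon overlapped between treatments too. Psmb8 had 7996, 7555, 9314 and 8052 normalized counts on venetoclax and 7481, 6547, 8494 and 6869 on vehicle, a log2 change of 0.17 (95% interval -0.05 to 0.38). Psmb9 had 3379, 2951, 3705 and 3250 on venetoclax and 3341, 3002, 3494 and 3019 on vehicle, at 0.05 (-0.14 to 0.23). Psmb10 had 2957, 2750, 3430 and 2895 on venetoclax and 2645, 2454, 2772 and 2699 on vehicle, at 0.18 (0.01 to 0.36), with a limma adjusted p of 0.201. Relative to their constitutive partners, the 3 genes changed by a mean log2 of 0.01. This was smaller than the per-library SD of 0.0357 on venetoclax and 0.125 on vehicle. By library the log2 was 1.306, 1.249, 1.225 and 1.283 on venetoclax and 1.317, 1.314, 1.069 and 1.324 on vehicle. The small change rests on vehicle replicate 3, since the other vehicle libraries all lay above every venetoclax library. Psmb8 against Psmb5 alone was 3.16, 2.83, 2.86 and 3.27 times per kilobase on venetoclax and 3.72, 3.35, 3.19 and 3.54 on vehicle. These overlapped only through vehicle replicate 3.

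**Figure D3:**
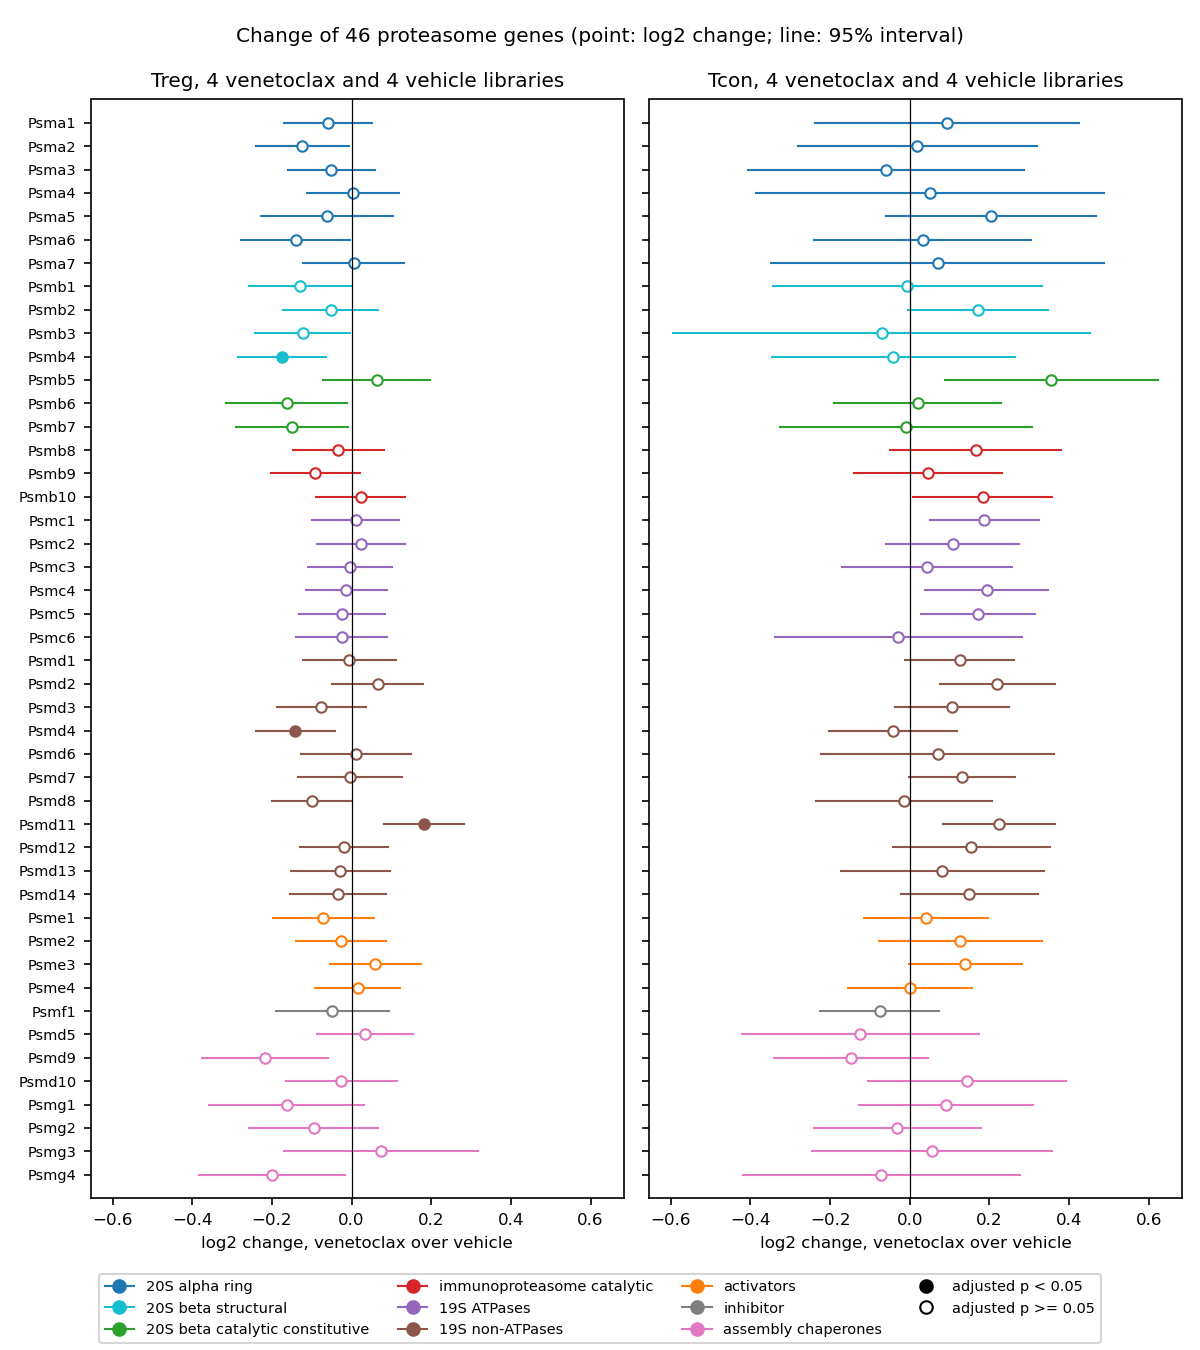
Log2 change of venetoclax over vehicle (x axis) of each proteasome gene in Treg (left) and Tcon (right), with 95% intervals from limma over 4 libraries a group; filled points have an adjusted p under 0.05. Psmd11 (higher), Psmb4 and Psmd4 (lower) are filled in Treg and none in Tcon, where intervals are wider and 33 of 46 points lie above 0.

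In Tcon the number 2 libraries deviated together and so did the number 3 libraries, while numbers 1 and 4 were not clearly paired. The labels do not say what a number marks, so a fit with the number as a block is only an alternative. The block fit called 6 members higher (Psma5, Psmb5, Psmb10, Psmc1, Psmd2 and Psmd11) and 0 lower, where it called 8.92% and 7.90% of all genes. The limma adjusted p of the 6 lay between 0.00209 for Psmb5 and 0.0446 for Psmb10. Without vehicle replicate 3 limma called 4 (Psma5, Psmb5, Psmc1 and Psmd11; 5.74% of all genes), and the same 4 without both number 3 libraries (6.87%). Psma5, of the alpha ring, had 2146, 1842, 2408 and 1972 normalized counts on venetoclax and 1724, 1624, 2284 and 1667 on vehicle. Again only vehicle replicate 3 lay within the venetoclax range, and the log2 change was 0.20 with all libraries and 0.32 without it.

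Tcon vehicle replicate 3 was unlike the others in which parts of the proteasome were high. The 14 constitutive 20S genes lay at a median log2 of 0.41 above their own means over the 8 Tcon libraries, the 3 immunoproteasome genes at 0.10 and the 17 genes of the 19S cap at 0.06. It was the highest of the 8 libraries for 11 of the 14 constitutive 20S genes and for 5 of the 17 cap genes. Over all genes it was the highest for 23.6%, so the count of cap genes is near that share. Tcon venetoclax replicate 3 was raised more evenly, at 0.22, 0.27 and 0.16 for the same groups, with 43 of 46 members above their means. Vehicle replicate 2 was lowest, at -0.25, -0.20 and -0.16, and was the lowest of the 8 for 29 of 46 members (13% of all genes).

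**Figure D4:**
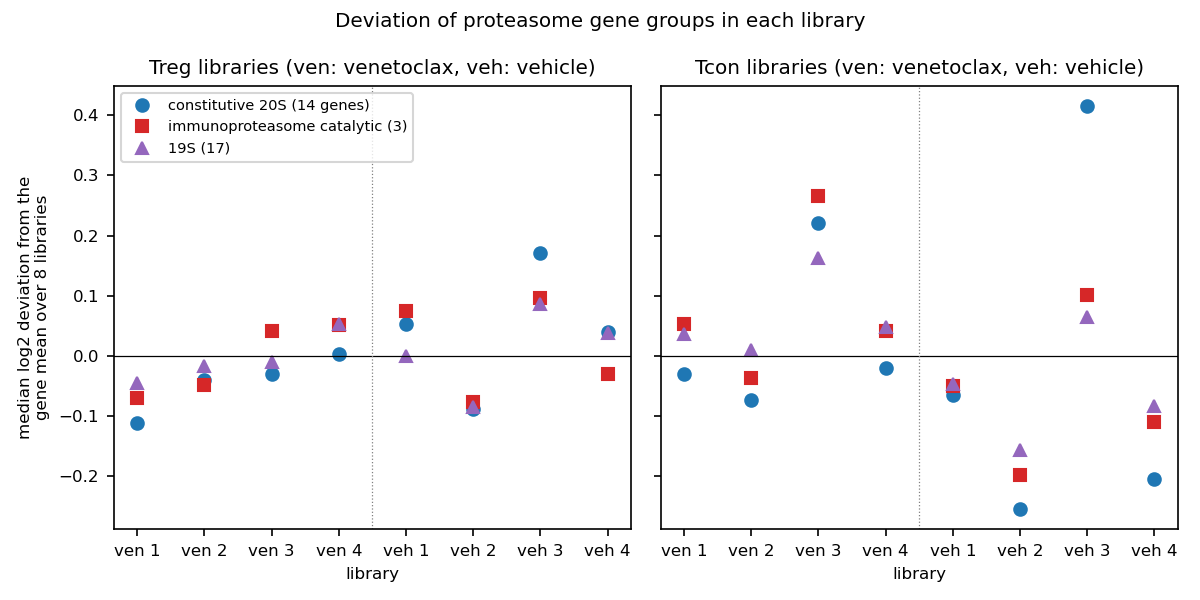
Median log2 deviation (y axis) of constitutive 20S, immunoproteasome and 19S genes from each gene's mean over the 8 libraries of its subset, by library (x axis; venetoclax left of the dotted line, vehicle right). Tcon vehicle replicate 3 has the 20S genes at 0.41 but the 19S genes at 0.06, and Treg libraries spread less, from -0.11 to 0.17.

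Leaving out single libraries moved the number of positive members in Tcon between 25 (without vehicle replicate 2 or without venetoclax replicate 3) and 42 (without vehicle replicate 3), and without venetoclax replicates 1 and 3 together 23 were positive and 23 negative. In the fit with the Y-linked covariate 41 were positive. Reads of mitochondrially encoded genes made up 3.60% to 3.98% of the Tcon venetoclax libraries and 3.64% to 6.19% of the Tcon vehicle libraries. In Treg they made up 3.08% to 3.53% on venetoclax and 3.49% to 4.31% on vehicle. Of 10 proliferation genes 9 were called higher in Tcon, at a summed 484 to 592 CPM on venetoclax and 364 to 406 CPM on vehicle, and in Treg 1 was called higher and 1 lower, at 418 to 575 CPM and 424 to 523 CPM. The part of these in the proteasome values was not tested. In sorted bulk RNA, more cells of a state and more RNA per cell cannot be told apart.

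Other named members in Tcon overlapped between treatments. Psmb2 had 1583, 1415, 1727 and 1599 normalized counts on venetoclax and 1400, 1290, 1526 and 1391 on vehicle (log2 0.17). Psme3, the nuclear activator, had 3792, 3678, 3426 and 3571 on venetoclax and 3314, 3235, 3085 and 3505 on vehicle (log2 0.14). Psmf1 had 985, 988, 938 and 1039 on venetoclax and 1105, 1039, 975 and 1044 on vehicle (log2 -0.08). Psmd9, which was lower in every venetoclax library of Treg, had 447, 438, 493 and 403 in venetoclax Tcon and 458, 494, 527 and 491 in vehicle Tcon (log2 -0.15), so here the groups overlapped. Psmb4 and Psmd4, which fell in Treg, both stood at log2 -0.04 in Tcon. By class, the median log2 change in Tcon was 0.17 for the immunoproteasome genes, 0.14 for ATPases, 0.13 for other 19S genes and 0.08 for activators. It was 0.05 for the alpha ring and 0.02 for the constitutive catalytic genes. The non-catalytic beta genes stood at -0.02 and the chaperones at -0.03, against 0.00 for all genes.

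Whether the 2 subsets responded unlike each other was tested as the Treg change minus the Tcon change. No member passed limma's test of this difference, where 1.30% of 10774 shared genes did, and none passed with edgeR (1.31%) or DESeq2 (2.74%). Unadjusted p-values under 0.05 came to 5 members, all with a lower change in Treg, where 5.86% of all genes were lower at that level: Psmc4 (-0.21), Psmc5 (-0.20), Psmc1 (-0.18), Psmd3 (-0.18) and Psmb2 (-0.22), with limma adjusted p between 0.314 and 0.405. The difference was negative for 40 of 46 members, with a median of -0.13, while 51.4% of all genes were above 0. Psmd11 differed by -0.04 (95% interval -0.19 to 0.11) between subsets, Psmb4 by -0.13 (-0.46 to 0.20), Psmd4 by -0.10 (-0.27 to 0.07) and Psmb8 by -0.20 (-0.44 to 0.04). With 1 library left out at a time 35 to 43 differences were negative, and without venetoclax replicates 1 and 3 together 34 were.

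Between Treg and Tcon, levels are given in CPM and were not tested, each table having its own normalization. In vehicle mice the Treg mean was higher for 38 of 46 members, where 56.1% of shared genes were, with a median log2 ratio of 0.12 (0.04 over all shared genes). All 4 Treg libraries were above all 4 Tcon libraries for 14 members (24.5% of shared genes) and below for Psmg2 alone (12.0%). All 3 immunoproteasome genes were among the 14. Psmb8 stood at 437, 394, 434 and 403 CPM in vehicle Treg and 318, 285, 339 and 295 CPM in vehicle Tcon, a log2 ratio of 0.43. Psmb10 stood at 133, 122, 138 and 128 CPM in Treg and 112, 107, 110 and 116 in Tcon, and Psmb9 at 160, 147, 147 and 144 in Treg and 142, 131, 139 and 130 in Tcon. The gap was wide for Psmb8 and narrow for Psmb9. The activators Psme1 and Psme2, at log2 ratios of 0.39 and 0.23, were among the 14 as well. Psmb5, Psmb6 and Psmb7 overlapped, at log2 ratios of 0.29, 0.17 and 0.09. The ratio of Psmb5 was above those of Psmb10 (0.22) and Psmb9 (0.14), and it overlapped only through Tcon vehicle replicate 3. The labels give each Treg library a code shared with 1 Tcon library, and same-code libraries deviated together (correlations 0.461 to 0.766). Within these pairs Treg was above Tcon in all 4 for 21 members (36.2% of shared genes), Psmb5 and Psmb6 among them. Psmb5 stood at 61.9, 55.9, 64.8 and 59.8 CPM in vehicle Treg and 47.2, 46.9, 58.6 and 46.04 CPM in vehicle Tcon, in the order of the pairs. Psmb7 was lower in Treg in pair 3.

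On venetoclax the Treg mean was higher for 25 of 46 members (57.3% of shared genes), with all Treg libraries above for 4 members (30.2%) and below for 4 (18.3%). Above were Psmb8, Psmc2, Psmd2 and Psme1, and below were Psmd3, Psmd6, Psmg1 and Psmg2. Psmb8 stood at 392, 401, 434 and 419 CPM in venetoclax Treg and 340, 322, 388 and 348 CPM in venetoclax Tcon, a log2 ratio of 0.24 with no overlap. Treg was above Tcon in all 4 same-code pairs for 7 members (39.2% of shared genes). Psmb9 and Psmb10 had ratios of 0.01 and 0.06 and overlapped. The change of these ratios with treatment is the difference tested above, in which no member passed, also with the shared code as a block.

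Genes that work with the proteasome were taken from a list of 39. In Treg 35 were measured, and limma called 4 higher and 5 lower at an adjusted p under 0.05, where 10.7% and 8.81% of all genes were called. In Tcon 36 were measured, and 1 was called higher and 1 lower, where 3.92% and 2.99% of all genes were. The higher count in Treg and both counts in Tcon are near those background shares. Ubqln1, a shuttle that carries ubiquitinated proteins to the cap, was called in both. It had 4753, 4191, 4218 and 3679 normalized counts in venetoclax Treg and 3331, 3074, 3382 and 3374 in vehicle Treg (log2 0.35, limma adjusted p 0.00368), and 4397, 3990, 4206 and 3717 in venetoclax Tcon and 3174, 3000, 3013 and 3169 in vehicle Tcon (log2 0.40, limma adjusted p 0.00691). No libraries overlapped in either subset.

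Of 7 factors that drive proteasome genes, 4 fell in Treg, where 8.81% of all genes did. Mafk, a small Maf partner, had 988, 929, 980 and 937 normalized counts on venetoclax and 1240, 1255, 1198 and 1509 on vehicle, a log2 change of -0.43 with a limma adjusted p of 0.00129. Nfe2l2 (NRF2) had 860, 860, 780 and 753 on venetoclax and 1000, 991, 1003 and 881 on vehicle, at -0.25 with a limma adjusted p of 0.0193. Every venetoclax library of both was below every vehicle library. Maff fell by 0.86 on the log2 scale and Ngly1, which strips sugar chains from NRF1 to activate it, by 0.18. Nfe2l1 (NRF1), the main inducer of proteasome genes when degradation falters, had 3491, 3249, 3049 and 3190 on venetoclax and 2913, 2764, 3119 and 3105 on vehicle, at 0.13 with a limma adjusted p of 0.133. In Tcon Maff fell by 1.75, a call lost without vehicle replicate 2, without any 1 of the venetoclax libraries, or with the Y-linked covariate, and Nfe2l1 stood at 0.14 and Nfe2l2 at -0.04, neither called. The adjusted p of Nfe2l2 and Ngly1 in Treg passed the threshold with all libraries but not without vehicle replicate 1 or 3, and without both number 3 libraries Mafk alone passed.

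Among the genes tied to the immunoproteasome, Irf2 and Nlrc5, an activator of MHC class I genes, rose in Treg. Their log2 changes were 0.26 and 0.23 (limma adjusted p 0.00320 and 0.0138). Of the listed 19S subunits and assembly factors, AI314180, which encodes the cap-associated protein Ecm29, rose in Treg by 0.15 (limma adjusted p 0.0416). Without venetoclax replicates 1 and 3 together none of the 4 higher partner genes of Treg, Ubqln1 among them, passed, nor did Ubqln1 in Tcon. Without both number 3 libraries, or with the Y-linked covariate, Irf2 and Ubqln1 passed in Treg and Nlrc5 and AI314180 did not. Irf1 (-0.06) and Tap1 (-0.05) were not called. Tap1, which shares a promoter region with Psmb9 and overlaps its exons by 212 bases on the opposite strand, had 10458, 9668, 9841 and 10028 normalized counts in venetoclax Treg and 10660, 10169, 10274 and 10237 in vehicle Treg, which overlapped. Without a stated strand setting, reads in those bases cannot be assigned. Of the 46 members, 12 share exon bases with another gene, among them Psmb5, Psmd1 and Psmg3 with a gene on the same strand. Pomp, the chaperone that favours immunoproteasome assembly, stood at -0.04 in Treg and 0.09 in Tcon, neither called, and the ubiquitin gene Rps27a fell in Treg by 0.28.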

How the data were processed

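Total RNA of 16 libraries was read from 2 tables, 1 per subset, in which the authors deposited normalized counts (a signal scaled by 1 size factor per library), the log2 fold change and the p-values of their own comparison. Per the submitters' processing notes, HISAT2, SAMtools and mm10 were used; the counting tool, its strand setting and the size factor method were not given in the sources used. Within a tolerance of 0.01, 100% of the deposited signal values were whole multiples of 1 step per library, so reads were recovered. Repeated lines (40 in Tcon, 43 in Treg) were dropped and 18 gene symbols turned into dates in the Treg table were restored.

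In R 4.3.3, limma 3.58.1 (trend, Benjamini-Hochberg over all genes, threshold 0.05) tested log2(normalized count + 1) within each table over 4 venetoclax and 4 vehicle libraries. Fold changes on this scale understate changes of low genes. The Treg minus Tcon difference used all 16 libraries, each table centred by 1 constant. edgeR 4.0.16 and DESeq2 1.42.0 on recovered reads were alternatives, as were a pseudocount of 5, a mean of at least 50, upper quartile scaling, left-out libraries, a replicate block and a Y-linked covariate (mean log2 level of Ddx3y, Kdm5d, Uty and Eif2s3y). The main limma fits, and edgeR and DESeq2 within a subset, were run on simulated data with known changes; the other alternatives were not. Limma recovered a 1.25-fold change in 6% of changed genes in Tcon, 52% in Treg and 7.07% for the difference. At 1.5-fold it recovered 64%, 94% and 62.1%. Changes as small as most of those of the members would thus mostly be missed in Tcon and in the difference. In Treg every member changed by less than 1.25-fold (log2 -0.22 to 0.18, median absolute log2 0.06). Changes that small were not simulated and can be missed in Treg as well. Libraries of 1 group differed by more than sampling noise (lowest chi-square per degree of freedom 6.41).

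Levels are CPM per kilobase of the GENCODE principal transcript, in place of the planned RefSeq exon union, for which no exons were at hand. In Tcon the number 2 and the number 3 libraries deviated together across treatments (correlations 0.555 and 0.614). Numbers 1 and 4 were not clearly paired, with same-number correlations of 0.119 and 0.272. Venetoclax 1 reached 0.292 with vehicle 2, and venetoclax 4 reached 0.252 with vehicle 1. The Tcon block still took all numbers as pairs, from the data and not the labels, so its calls rest in part on unclear pairs. Members named with values are the catalytic genes, the member of each other class with the largest absolute log2 change in each subset, up to 8 called per subset and direction, and those whose call differs between settings; partner genes are up to 6 called per subset and direction, plus Nfe2l1, Pomp, Psmf1, Irf1 and Tap1; a further gene of that rule is not reported here. Psmg4 was named after its values were seen. The members and lists were chosen with earlier results of these data known. Nothing says that replicates came from separate animals beyond the word biological, so p-values measure the spread between these libraries. Psma8, Psmb11 and Psme2b are not analysed here.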

Additional observations from a re-analysis of the deposited data

Results flagged for a closer look

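In 100 groups of 4 libraries tested for a value far from the other 3, 9 were found. The limit used is passed by chance in about 1 in 20 independent groups. That rate is no yardstick for the 9, since the groups share libraries. Some members were also named because leaving out 1 library moved their call. Tcon vehicle replicate 3 stood apart in 4: Psma5 at 2284 normalized counts (the others 1624 to 1724), Psmb5 at 1469 (1072 to 1109), Psmc6 at 2583 (1596 to 1726), and the log2 of immunoproteasome minus constitutive catalytic genes at 1.07 (1.31 to 1.32). Tcon venetoclax replicate 3 stood apart in 3: Psma6 at 2767 normalized counts (2294 to 2351), Psmb4 at 3542 (2908 to 2994) and Psmc4 at 2334 (2012 to 2039). In Treg, venetoclax replicate 4 had Psmb2 at 1723 normalized counts (1555 to 1570), and venetoclax replicate 2 had a ratio of Psmb9 to Psmb6 per kilobase of 0.891 (0.996 to 1.02). In these 9 cases 7 belong to number 3 libraries of Tcon.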

How the results depend on the processing

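In Tcon, members called higher were 0 with all libraries by limma, 2 with DESeq2, 4 without Tcon vehicle replicate 3, 4 without both number 3 libraries and 6 with the replicate block; leaving out 1 library at a time gave 0 to 4. In Treg, members called higher were 1 with all libraries and 0 without venetoclax replicates 1 and 3 together, and 0 to 1 with 1 library left out. Members called lower in Treg were 2 with all libraries, 0 without both number 3 libraries, 0 without venetoclax replicates 1 and 3 together, 0 with the Y-linked covariate and 1 with the replicate block, and 0 to 7 with 1 library left out. The cause was not tested. In Treg same-numbered libraries correlated at -0.0395, 0.414, 0.256 and 0.385, and unlike numbers reached 0.363 (venetoclax 4 with vehicle 1). In neither subset do the labels say what a number marks, and in Treg the block moved the lower calls to Psmb4 alone. The difference between subsets had 0 members called in every setting run. For single named members, 313 of 357 values in Tcon and 312 of 357 in Treg kept their direction and their side of the threshold, and none that was called changed direction. A low count here does not show that levels were alike, since most changes are under 1.5-fold.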
